A study of Mus musculus with 12 samples.

Results

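The 10 cytokine receptor chains described here are Il2ra, Il2rb, Il2rg, Il7r, Il4ra, Il21r, Il6ra, Il6st, Il10ra and Ifngr1, taken by symbol from the 50600 gene IDs of the count files. RNA-seq of 12 mice was available, 3 in each of 4 groups. Ctrl was thymocytes of DNMT1 fl/fl mice without Cre at 20 to 25 wk, and KO was thymocytes of DNMT1 fl/fl CD4-CRE mice at 20 to 21 wk. ALK was T-cell lymphoma cells of NPM-ALK+ mice at 22 to 31 wk, and ALKKO was thymocytes of mice carrying NPM-ALK and the DNMT1 fl/fl CD4-CRE alleles at 19 to 25 wk. The labels give the floxed allele for Ctrl, KO and ALKKO but not for ALK. NPM-ALK is a human fusion kinase found in anaplastic large cell lymphoma, here driven by the Cd4 enhancer and promoter, and Cre is active in T cells from the stage that turns on Cd4. The ALK group was the only one made of tumor cells, so that transgene and transformation cannot be told apart in it. KO mouse 2 was the only female. Of the 10 chains, 9 were among the 16052 genes tested, and Il2rg was at 0 counts in every library.

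Cytokine receptors of this class have no enzyme activity of their own. Binding of a cytokine brings together chains that carry JAK kinases, which phosphorylate STAT factors, and the chains are shared between receptors. The common gamma chain, encoded by Il2rg, pairs with the chains of the IL-2, IL-4, IL-7, IL-9, IL-15 and IL-21 receptors, and gp130, encoded by Il6st, serves IL-6 and its relatives. In the thymus, IL-7 is known for its role in the survival of immature thymocytes, and thymocytes with both CD4 and CD8 normally carry little IL-7 receptor. NPM-ALK itself is known to activate STAT3 without a cytokine.

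The start regions of 4 chains are shown, chosen for the tumor levels of these genes. They are given as description and were not related to the levels. Il4ra and Il21r are adjacent genes that were both lower in every tumor, while Il7r and Il6ra were low in 1 tumor and not in the other two. Each sequence covers 250 bases before to 50 bases after the RefSeq start (GRCm38.p6), on the strand of the gene, and capitals mark CpG, the dinucleotide that Dnmt1 keeps methylated.
Il4ra, chr7:125552021-125552320, plus strand: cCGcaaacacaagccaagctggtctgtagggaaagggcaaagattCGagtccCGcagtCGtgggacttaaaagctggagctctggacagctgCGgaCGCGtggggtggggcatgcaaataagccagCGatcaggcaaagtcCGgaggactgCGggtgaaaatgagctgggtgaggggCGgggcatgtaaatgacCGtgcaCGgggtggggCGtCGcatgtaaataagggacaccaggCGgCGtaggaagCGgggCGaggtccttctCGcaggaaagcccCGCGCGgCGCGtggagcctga
Il21r, chr7:125603179-125603478, plus strand: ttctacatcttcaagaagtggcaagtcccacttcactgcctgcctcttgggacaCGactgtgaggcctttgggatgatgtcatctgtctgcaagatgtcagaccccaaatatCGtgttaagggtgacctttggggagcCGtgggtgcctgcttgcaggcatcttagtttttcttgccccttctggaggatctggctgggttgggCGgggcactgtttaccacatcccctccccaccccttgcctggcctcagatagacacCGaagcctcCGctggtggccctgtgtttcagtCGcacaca
Il6ra, chr3:89913147-89913446, minus strand: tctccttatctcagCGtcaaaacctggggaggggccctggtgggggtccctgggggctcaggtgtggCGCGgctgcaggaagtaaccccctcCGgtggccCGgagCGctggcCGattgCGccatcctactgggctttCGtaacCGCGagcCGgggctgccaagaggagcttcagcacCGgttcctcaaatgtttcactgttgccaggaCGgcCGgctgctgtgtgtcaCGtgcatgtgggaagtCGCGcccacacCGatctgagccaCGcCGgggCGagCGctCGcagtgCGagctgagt
Il7r, chr15:9529827-9530126, minus strand: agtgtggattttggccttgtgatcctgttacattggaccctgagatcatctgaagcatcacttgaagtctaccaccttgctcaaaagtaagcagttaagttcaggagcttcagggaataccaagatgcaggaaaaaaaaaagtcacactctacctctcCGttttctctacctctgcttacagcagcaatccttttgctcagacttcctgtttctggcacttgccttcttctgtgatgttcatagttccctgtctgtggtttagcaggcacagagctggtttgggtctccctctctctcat
A promoter was found for 8 of the 10 chains. Il6st held 33 CpG in its 300 bases, Il4ra and Il6ra 25 each, Ifngr1 14, Il21r 7, Il2ra and Il2rg 3 each and Il7r 1, with a median of 7 over 32851 mouse promoters. Methylation of these promoters was not analysed here. The letters TTCNNNGAA, the core of a STAT site and the same on both strands, were searched in these windows. They occurred in 1 of the 8 promoters, that of Il7r, and in 8.30% of all promoters. The Il7r window lies wholly inside the gene as annotated for the counts (9505788 to 9530176). Its match is therefore before the RefSeq start but after the start of that annotation.

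The total count per library ran from 12473857 to 18864327. Values are CPM, the counts scaled to a common library total after TMM normalization. Dnmt1 was at 400.0 to 487 CPM in Ctrl, 206 to 244 in KO, 379 to 788 in ALK and 205 to 244 in ALKKO, and Alk was at or below 0.431 in mice without the transgene and at 34.9 to 55.0 in those with it. The summed thymocyte markers (15 of 16 detected, Rag1 at 0 everywhere) were at 13362 to 16175 CPM in Ctrl, 5561 to 14100 in KO, 5418 to 7176 in ALK and 11745 to 13841 in ALKKO. KO mouse 2 stood apart. Its thymocyte markers were the 5561 CPM minimum of KO, with 13756 and 14100 in the others. Its B cell markers, a list of 8, summed to 2406 CPM, whereas all other thymus libraries lay between 64.9 and 119 and the tumors between 8.21 and 18.7. Its myeloid markers, 11 of 12 detected with Itgam at 0, also reached the series maximum of 2867. In bulk RNA, fewer cells of a type and less RNA per cell cannot be told apart.

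Il2rg encodes the common gamma chain, and no read was assigned to it in any of the 12 libraries. On mm10 it lies on the minus strand of chromosome X from 101264378 to 101268255, wholly inside the annotated gene Gm20489 of the same strand, which runs from 101261405 to 101269023. Gm20489 itself received 1 to 38 counts per library. The same held for nearly every gene so placed. Of 411 protein-coding genes wholly inside another gene of their strand, 407 (99.0%) were at 0 in all libraries. The share was 20.3% of 782 genes inside a gene of the opposite strand only, and 13.2% of 20571 genes inside no other gene. The 0 of Il2rg therefore gives no information on its RNA, and no level of the common gamma chain was obtained.

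In Ctrl thymocytes the remaining chains spanned a wide range per length of transcript. On the scale of CPM per kb of exon, Ifngr1, the ligand-binding chain of the interferon-gamma receptor, had the highest level at 139 ± 13.2 (SD, n = 3). Il21r, the IL-21 receptor, followed at 83.2 ± 10.5, Il4ra, the alpha chain for IL-4 and IL-13, at 41.9 ± 2.13, and Il6st at 27.1 ± 3.24. These 4 neighbours in the order did not overlap. Il7r (15.3 ± 3.73) and Il10ra, the ligand-binding chain for IL-10 (14.8 ± 3.27), overlapped. So did Il2ra, the alpha chain CD25 that raises affinity for IL-2 (10.4 ± 0.731), and Il2rb, the signaling beta chain for IL-2 and IL-15 (10.4 ± 1.13). Il6ra, the IL-6 binding chain, was lowest at 3.10 ± 0.318.

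In the tumors most levels overlapped. Ifngr1 still led at 33.5 ± 21.5 CPM per kb, but each chain from Ifngr1 down through Il6st, Il7r, Il6ra, Il4ra, Il2ra and Il21r to Il10ra overlapped with the next. Il2rb had the lowest mean, at 0.508 ± 0.325, and did not overlap with Il10ra, the next above it. In ALKKO the first 4 ranks were those of Ctrl, with Ifngr1 at 162 ± 12.4, Il21r at 78.9 ± 6.32, Il4ra at 38.1 ± 0.730 and Il6st at 35.8 ± 0.764. In KO the order of these 4 was also that of Ctrl, with Il4ra (41.2 ± 10.7) and Il6st (35.6 ± 2.57) overlapping.

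**Figure D1:**
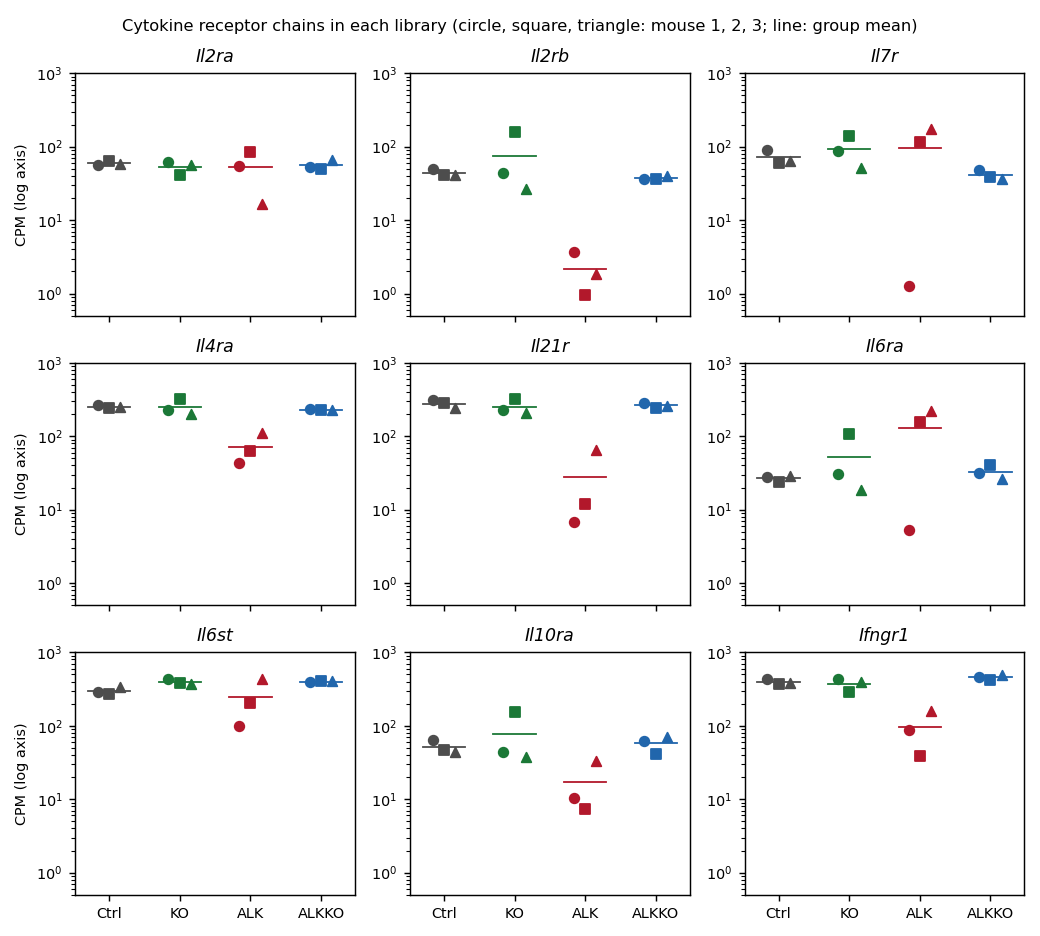
CPM on a log axis for 9 receptor chains in each library, with groups on the horizontal axis, a symbol per mouse and a line at each group mean. Il2rb, Il4ra, Il21r, Il10ra and Ifngr1 lie lower in all 3 ALK libraries than in any other library, Il7r and Il6ra split the tumors, and KO mouse 2 is the high square for Il2rb, Il6ra and Il10ra.

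The comparison of ALK tumors with Ctrl thymocytes asked which receptor chains differ in the transformed cells. Il2rb, Il21r, Ifngr1 and Il4ra were lower in all 3 tumors and passed the test, and no chain passed it in the other direction. Genes were called at an adjusted p under 0.05 in edgeR's quasi-likelihood test and a log2 fold change beyond 1. Of the 9 chains tested, 4 were called, all lower, whereas 20.4% of all genes were called and 12% were called lower. The median log2 fold change was -1.61 over the 9 chains and 0.05 over all genes. A lower level was not particular to these chains. Of 15 thymocyte markers tested, 8 were called lower and 0 higher (53.3%), with a median of -1.90.

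Il2rb was at 50.1, 41.8 and 41.7 CPM in the Ctrl mice and at 3.70, 0.960 and 1.88 CPM in the tumors. All 3 tumors were far below all Ctrl mice, on 11 to 55 counts each. The difference was 20.1-fold, a log2 fold change of -4.33 ± 0.680 (SE; edgeR adjusted p = 0.00181). Il21r was at 307, 284 and 239 CPM in Ctrl and at 6.72, 11.8 and 64.8 CPM in ALK. The groups did not overlap, and the third tumor kept several times the level of the others. The log2 fold change was -3.32 ± 0.686 (edgeR adjusted p = 0.00605), or 9.97-fold.

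Ifngr1 was at 437, 364 and 385 CPM in Ctrl and at 86.9, 38.8 and 160.5 CPM in ALK. It fell by 2.05 ± 0.399 on the log2 scale (edgeR adjusted p = 0.00461). Il4ra was at 266, 241 and 248 CPM in Ctrl and at 42.9, 62.2 and 111 CPM in ALK. It fell by 1.80 ± 0.303 on the log2 scale (edgeR adjusted p = 0.00250), which is 3.49-fold. For both genes every tumor was below every thymus library of the series. These calls were kept in all 19 alternative analyses for Il2rb, Il4ra and Ifngr1, and in all 18 that gave an adjusted p for Il21r.

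Il10ra showed the same placement without passing the test. It was at 64.9, 47.2 and 43.6 CPM in Ctrl and at 10.4, 7.25 and 33.2 CPM in ALK, again with no overlap. The log2 fold change was -1.61 ± 0.637 (edgeR adjusted p = 0.0797). It was called with DESeq2 (-1.65, adjusted p = 0.0274), with age as a covariate (-2.39, edgeR adjusted p = 0.0324) and without the third tumor (-2.57, edgeR adjusted p = 0.0131), and without KO mouse 2 it was called as well (-1.64, edgeR adjusted p = 0.0298). In all, 5 of the 9 chains had tumor values below the whole Ctrl range, against 25.1% of all genes. Each of the 5 reached p = 0.1 in the exact two-sided permutation test, the smallest value that groups of 3 allow.

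Il2ra and Il6st did not pass the test. Il2ra was at 55.6, 63.9 and 58.6 CPM in Ctrl and at 54.2, 85.6 and 16.7 CPM in ALK (log2 fold change -0.19 ± 0.431, edgeR adjusted p = 0.771). The second tumor was above and the others below all Ctrl mice, and without the third tumor the estimate was 0.22. Il6st was at 291, 271 and 341 CPM in Ctrl and at 99.7, 204 and 435 CPM in ALK, again on both sides of Ctrl (log2 fold change -0.29 ± 0.390, edgeR adjusted p = 0.605). Without the first tumor it was 0.09.

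Markers of some other cell types moved with this comparison. Of 8 B cell and of 8 mature thymocyte markers, 2 each were called lower (25%, against 20.4% of all genes). Of 11 myeloid markers tested 1 was called lower (9.09%), and of 5 erythroid markers tested 0 were called. The B cell list summed to 64.9 to 119 CPM in Ctrl and to 8.21 to 18.7 in ALK, with none of the 8 markers at 0 in all tumors. The list of mature thymocyte markers, all 8 detected, was at 1054 to 1123 CPM in Ctrl and 196 to 965 in ALK. The list of 7 regulatory T cell markers was at 162 to 179 and 42.3 to 184. In Ctrl and in the third tumor Ikzf2 made up most of this sum, at 99.2 to 113 and 110 CPM. Foxp3 was at 3.64 to 6.24 CPM in Ctrl and 0.0873 to 0.269 in ALK. Of the 7, 5 had a negative and 2 a positive log2 fold change, and 3 were called lower (42.9%). The stromal list, all 11 detected, summed to 823 to 919 CPM in Ctrl and to 1006 to 1467 in ALK. Of its genes 2 were called higher and 3 lower (45.5%, against 20.4% of all genes). Among them, the thymic epithelial gene Psmb11 was at 106 to 130 CPM in Ctrl and 0.0672 to 0.349 in ALK, and Foxn1, the factor that specifies this epithelium, at 14.6 to 38.8 and 0.0672 to 1.09. The fibroblast collagen Col1a1 was at 14.2 to 28.6 CPM in Ctrl and 243 to 702 in ALK. Of 7 markers of NK and innate lymphoid cells 3 were called lower (42.9%), with sums of 109 to 144 CPM in Ctrl and 87.5 to 221 in ALK. Most of these sums was Gata3, at 77.7 to 97.3 CPM in Ctrl and 65.7 to 151 in ALK. The part of these cell types in the lower receptor values was not tested.

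The tumors differed strongly from each other. In log2(CPM + 1), the median SD over the 3 tumors was 1.08 for the 9 chains and 0.354 for all genes, whereas in Ctrl it was 0.149 and 0.162. In the first tumor 8 chains were below all 9 thymus libraries and none was above them. In the second, 6 were below and 2 above, and in the third, 6 were below and 3 above. The third tumor had the highest tumor value of 7 of the 9 chains. Its mature thymocyte markers also had the highest tumor sum, with 373, 196 and 965 CPM in the 3 tumors. So did its myeloid markers (399, 319 and 1067 CPM). The regulatory T cell, B cell, NK and erythroid sums were highest in it as well. The thymocyte sum was highest in the second tumor (7176 CPM) and the stromal sum in the first (1467 CPM). The part of these cells in the spread between tumors was not tested.

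Il7r and Il6ra split the tumors most. Il7r was at 1.28, 117 and 174 CPM in the 3 tumors, a range of 136-fold, with 91.3, 59.3 and 63.4 CPM in Ctrl. The first tumor held 19 counts of it, the second was within the range of the thymus libraries and the third above them. Il6ra was at 5.31, 156 and 224 CPM in the tumors, a range of 42.2-fold, with 27.5, 23.8 and 29.2 CPM in Ctrl. Again the first tumor was below all thymus libraries, and the others were above them. Neither chain was called in ALK against Ctrl (Il7r: 0.45 ± 0.990 on the log2 scale, edgeR adjusted p = 0.762; Il6ra: 2.26 ± 0.982, edgeR adjusted p = 0.106). Without the third tumor the estimate for Il7r was -0.29. Without the first tumor the log2 fold change of Il6ra was 2.82 and was called (edgeR adjusted p = 0.00742), and DESeq2 called it with all tumors (2.22, adjusted p = 0.0384).

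Il9r, whose product pairs with the common gamma chain to bind IL-9, ordered the tumors as Il7r and Il6ra did. It was at 0.336, 47.8 and 161 CPM in the tumors and at 11.3, 7.93 and 13.9 CPM in Ctrl (log2 fold change 2.66 ± 1.30, edgeR adjusted p = 0.145). Il15ra, the IL-15 binding chain, lies 12.1 kb from Il2ra on chromosome 2 with no tested gene between them. The 3 tumors had the same order for both genes, but the first lay above all Ctrl mice for Il15ra and below them for Il2ra. Il15ra was at 44.2, 53.4 and 9.23 CPM in the tumors against 27.7, 27.8 and 35.3 CPM in Ctrl, with the third tumor lowest and the second highest, as for Il2ra.

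**Figure D2:**
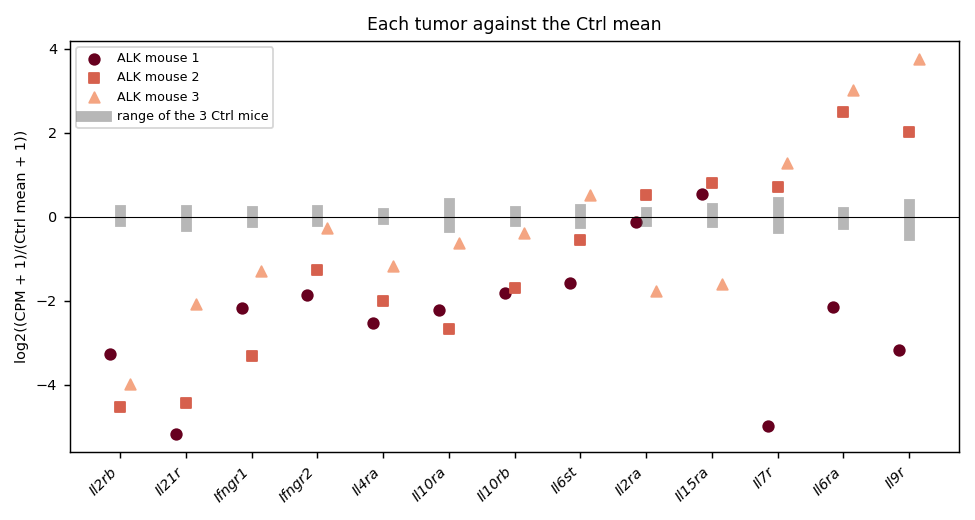
The log2 ratio of each tumor to the Ctrl mean, with 1 CPM added to both, for 9 receptor chains and 4 partner chains; symbols are the 3 ALK mice and grey bars the range of the 3 Ctrl mice. Il2rb, Il21r, Ifngr1, Ifngr2, Il4ra, Il10ra and Il10rb are below the Ctrl bar in all tumors, while Il7r, Il6ra and Il9r are far below it in mouse 1 and above it in mice 2 and 3.

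The chains that complete these receptors were counted as a list of 10, all tested. Of these, 5 were called lower in ALK than in Ctrl and none higher (50%, against 20.4% of all genes). The median log2 fold change was -1.10. The largest falls were in chains that pair with gp130. Lifr, the receptor for leukemia inhibitory factor, fell by 2.91 ± 0.689 on the log2 scale (edgeR adjusted p = 0.0114), and Osmr, the oncostatin M receptor, by 2.39 ± 0.313 (edgeR adjusted p = 0.000822). Il13ra1, which joins Il4ra in the receptor for IL-4 and IL-13 of non-lymphoid cells, fell by 1.40 ± 0.380 (edgeR adjusted p = 0.0203). Il11ra1 was also called.

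Ifngr2, the signaling chain of the interferon-gamma receptor, was at 78.2, 66.4 and 64.7 CPM in Ctrl and at 18.3, 28.3 and 57.9 CPM in ALK. It was called just beyond both thresholds, with a log2 fold change of -1.001 ± 0.333 (edgeR adjusted p = 0.0447). Il10rb, the second chain of the IL-10 receptor, was at 30.0, 30.9 and 35.5 CPM in Ctrl and at 8.33, 9.25 and 24.4 CPM in ALK, and did not pass the test (-1.20 ± 0.415, edgeR adjusted p = 0.0515). In both receptors, both chains were below the Ctrl range in every tumor.

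Per kb of exon, the chain with the lowest level also differed between tumors and thymus for the IL-15 receptor. Il15ra was the lowest measured chain in all Ctrl and ALKKO mice and in 2 of 3 KO mice, at 5.42 to 10.7 CPM per kb in those libraries. In the 3 tumors it was Il2rb, at 0.224 to 0.862 CPM per kb. For the interferon-gamma receptor the lowest chain was Ifngr2 in all 12 libraries. For IL-6 it was Il6ra in all 12 libraries, from 0.614 CPM per kb in the first tumor to 25.9 in the third. The common gamma chain is missing from these readings.

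The comparison of ALK tumors with ALKKO thymocytes held the transgene in both groups. The groups differ both in Dnmt1 deletion and in being tumor or thymus, and these cannot be told apart here. The same 4 chains were called lower in the tumors, against 19.6% of all genes called and 12.6% called lower. In ALKKO, Il2rb was at 36.1, 36.2 and 40.2 CPM, Il21r at 284, 242 and 260.6, Ifngr1 at 460.3, 426 and 496, and Il4ra at 233, 224 and 229. All of these values were above those of all tumors. The log2 fold changes were -4.08 ± 0.674 for Il2rb (edgeR adjusted p = 0.00232), -3.24 ± 0.683 for Il21r (edgeR adjusted p = 0.00704), -2.27 ± 0.402 for Ifngr1 (edgeR adjusted p = 0.00323) and -1.67 ± 0.302 for Il4ra (edgeR adjusted p = 0.00357). ALK and ALKKO did not overlap for these chains and for Il10ra, 5 of 9, against 23.7% of all genes that were lower without overlap.

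Il10ra was at 62.1, 41.4 and 70.7 CPM in ALKKO and missed the threshold (-1.77 ± 0.640, edgeR adjusted p = 0.0614). It was called with DESeq2, with age as a covariate, without KO mouse 2 (-1.81, edgeR adjusted p = 0.0216) and without the third tumor (-2.72, edgeR adjusted p = 0.0106). Il7r was at 48.1, 39.1 and 35.9 CPM in ALKKO, and its log2 fold change of 1.25 ± 1.01 did not pass the test (edgeR adjusted p = 0.379). Without the first tumor it was 1.84 (edgeR adjusted p = 0.00646). Il6ra, at 31.8, 40.5 and 25.9 CPM in ALKKO, likewise went from 1.97 ± 0.972 (edgeR adjusted p = 0.152) to 2.55 without the first tumor (edgeR adjusted p = 0.0118). Il6st was at 388, 404 and 401 CPM in ALKKO and was not called (-0.69 ± 0.391, edgeR adjusted p = 0.206), but was without the third tumor (-1.39, edgeR adjusted p = 0.00481). Il2ra was at 52.5, 49.9 and 66.0 CPM (-0.11 ± 0.432, edgeR adjusted p = 0.873).

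**Figure D3:**
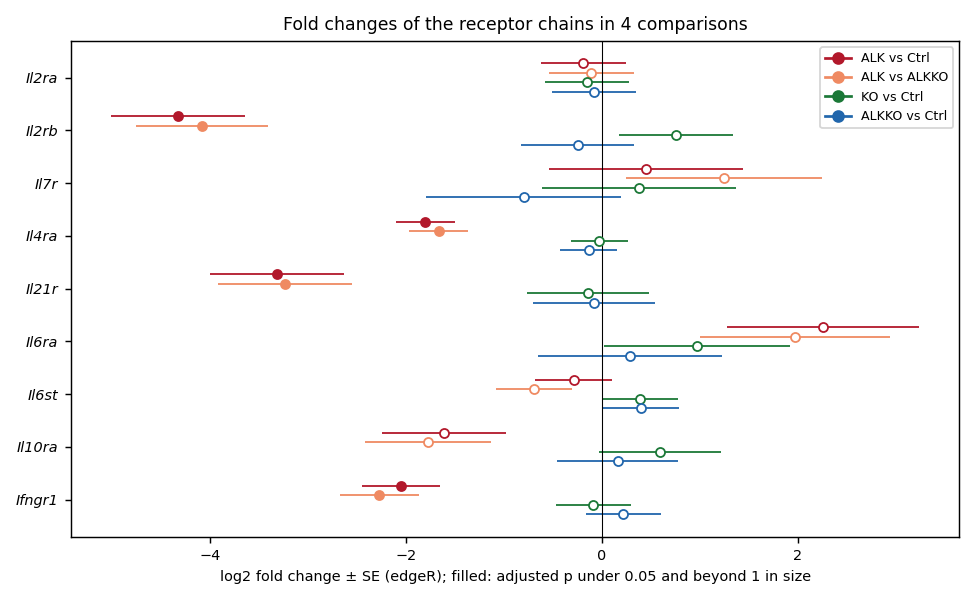
Log2 fold changes with SE from edgeR for 9 receptor chains (rows) in 4 comparisons (colors); filled points are called. Filled points occur for Il2rb, Il4ra, Il21r and Ifngr1 in ALK against Ctrl and against ALKKO, from -4.33 to -1.67, and no point of KO or ALKKO against Ctrl is filled.

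The difference between ALK minus Ctrl and ALKKO minus KO was tested as an interaction. Only ALK was tumor, so it does not isolate an effect of the transgene. The same 4 chains were called lower, against 5.62% of all genes, at -2.36 ± 0.550 for Ifngr1 (edgeR adjusted p = 0.0267), -3.38 ± 0.910 for Il21r (edgeR adjusted p = 0.0423), -3.33 ± 0.860 for Il2rb (edgeR adjusted p = 0.0372) and -1.69 ± 0.419 for Il4ra (edgeR adjusted p = 0.0320). These calls were not kept when single mice were left out. None of the chains was called without Ctrl mouse 1, 2 or 3, KO mouse 3, or ALKKO mouse 1 or 3. Only Ifngr1 was called without KO mouse 1, ALK mouse 2 or ALKKO mouse 2. Without KO mouse 2 or without the third tumor 3 chains were called, and without the first tumor 6, with Il7r (2.22) and Il6ra (3.53) among them. The direction of the 4 chains was the same in each case, with an adjusted p of at most 0.0962.

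Deletion of Dnmt1 without the transgene was tested by KO against Ctrl. None of the 9 chains was called, and none had an unadjusted p under 0.05 in edgeR, against 0.0187% of all genes called. The spread in this test is that of all libraries, tumors included, so that small differences can be missed. With only the KO and Ctrl libraries, none of the chains was called either. DESeq2 called none of the chains either, but gave no adjusted p for Il21r. Il6st was at 426, 386.8 and 370.95 CPM in KO, above all Ctrl mice (log2 fold change 0.39 ± 0.390, edgeR adjusted p = 0.915). It was the only chain whose groups did not overlap, 1 of 9, against 12.4% of all genes.

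KO mouse 2, the library with high B cell and myeloid and low thymocyte markers, was the highest KO library for 6 of the 9 chains. Its mature thymocyte markers summed to 1821 CPM, with 924 to 1319 in the other thymus libraries. Its erythroid markers reached the series maximum of 2427 CPM. Il2rb was at 43.5, 156 and 26.2 CPM in the KO mice, so that mouse 2 was 4.49-fold above the mean of the others. Il6ra, at 31.0, 108 and 18.7 CPM, was 4.36-fold above it, and Il10ra, at 43.9, 154 and 37.2 CPM, 3.80-fold. Il7r (86.7, 140.1 and 51.2 CPM) was 2.03-fold above. Il4ra (224, 320.1 and 198 CPM) and Il21r (230.2, 317 and 206 CPM) were 1.52-fold and 1.45-fold above. Il2ra (62.0, 41.3 and 56.7 CPM) and Ifngr1 (431, 290.4 and 393 CPM) were below the other thymus libraries in this mouse. Without it the log2 fold changes of KO against Ctrl turned from 0.76 to -0.35 for Il2rb, from 0.97 to -0.11 for Il6ra, from 0.59 to -0.35 for Il10ra and from 0.38 to -0.05 for Il7r. The part of the cell types in these values was not tested.

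**Figure D4:**
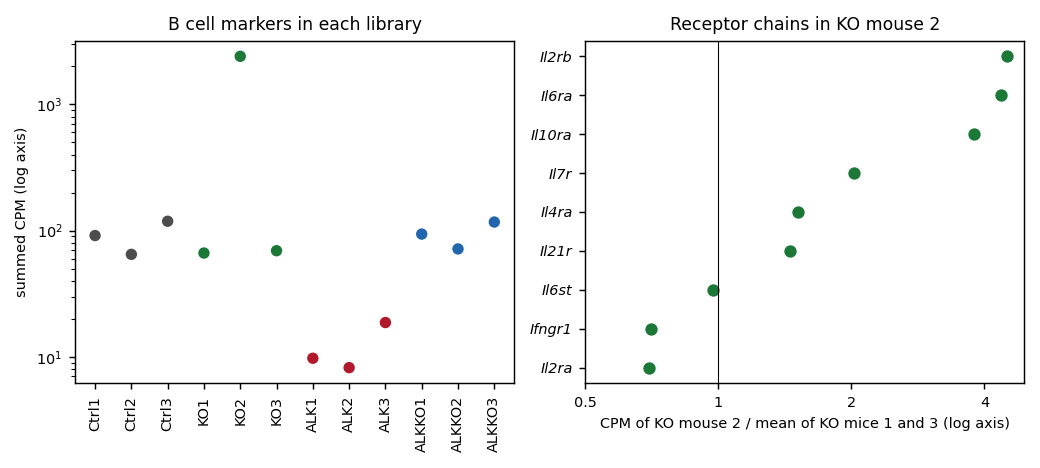
Left, summed CPM of 8 B cell markers on a log axis for each of the 12 libraries; right, the CPM of 9 receptor chains in KO mouse 2 divided by the mean of KO mice 1 and 3, on a log axis. KO mouse 2 has 2406 CPM of B cell markers, and its ratios run from 0.696 for Il2ra to 4.49 for Il2rb.

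ALKKO thymocytes, which carry the transgene but are not labelled as lymphoma, were set against Ctrl and against KO. None of the 9 chains was called in ALKKO against Ctrl, where 0.181% of all genes were called, and none in ALKKO against KO, where 0.00623% were, namely Alk. None had an unadjusted p under 0.05 in edgeR in either comparison. DESeq2 called none, but gave no adjusted p for Il21r. The edgeR fit takes the spread from all 12 libraries, tumors included, so that small differences between thymus groups can be missed. For Il7r the SD of log2(CPM + 1) was 0.330 in Ctrl, 0.213 in ALKKO and 3.46 in ALK. With only the compared groups, none of the chains was called either. Against Ctrl, the groups did not overlap for 4 of 9 chains, against 17.5% of all genes. Il6st was higher (0.40 ± 0.390), and Il2rb (-0.25 ± 0.578), Il7r (-0.80 ± 0.996) and Il4ra (-0.14 ± 0.294) were lower on the log2 scale, each with an edgeR adjusted p of 0.9998. Against KO, only Il7r did not overlap, 1 of 9 against 6.34% of all genes, with a log2 fold change of -1.17 ± 1.003. For the other called chains, the log2 fold changes of ALKKO against Ctrl were -0.08 ± 0.624 for Il21r and 0.22 ± 0.383 for Ifngr1.

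The ligands of these receptors were mostly near the limit of detection. Of 16, 10 were tested, with 1 called higher and 6 lower in ALK than in Ctrl (70%, against 20.4% of all genes). Il10, an inhibitory cytokine, was at 0.581, 0.482 and 0.162 CPM in Ctrl and at 24.8, 26.2 and 0.704 CPM in ALK (log2 fold change 5.37 ± 1.21, edgeR adjusted p = 0.00924). It was high in the first and second tumors, those with the lowest Il10ra. The third tumor was the highest for 7 of the 9 chains, so low values in the first and second are not particular to Il10ra. Il7, the cytokine bound by Il7r and made by stromal cells, was at 15.6, 15.7 and 26.7 CPM in Ctrl and at 0, 1.31 and 3.91 CPM in ALK, and fell by 3.48 ± 1.01 on the log2 scale (edgeR adjusted p = 0.0272). The thymic epithelial markers Psmb11 and Foxn1 were also called lower, and their part in the Il7 values was not tested. Ebi3, a subunit shared by IL-27 and IL-35, fell by 2.93 ± 0.827 (edgeR adjusted p = 0.0241). Il13 was at 2.03 ± 0.820 CPM in Ctrl (SD, n = 3) and at 0 in all tumors, at least 7.76-fold lower than Ctrl when set at 3 counts in the shallowest tumor library, which is 0.262 CPM. The median log2 fold change of the 10 was -2.75, and -2.47 with the ligands at 0 placed at that bound.

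Genes downstream of the receptors were counted in the same way. Of 11 JAK and STAT genes 1 was called (9.09%, against the 20.4% of all genes), Stat5b, which IL-2 and IL-7 receptors activate. It was at 422, 410.3 and 386 CPM in Ctrl and at 249, 175 and 165 CPM in ALK (log2 fold change -1.05 ± 0.241, edgeR adjusted p = 0.00994). Of 16 feedback regulators 3 were called (18.8%, also under the share of all genes). Socs3, induced by STAT3, rose by 2.29 ± 0.563 (edgeR adjusted p = 0.0134). Cish fell by 3.16 ± 0.553 (edgeR adjusted p = 0.00287) and Socs1 by 1.78 ± 0.256 (edgeR adjusted p = 0.00124), both known as genes that cytokine receptors induce. Cish was at 31.0, 27.6 and 34.5 CPM in Ctrl and at 0.873, 3.06 and 6.49 CPM in ALK. The medians were -0.26 for the JAK and STAT genes and -0.17 for the regulators.

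Of 15 genes that cytokine receptors are known to regulate in survival and growth, 1 was called higher and 5 lower. This was 40%, against 20.4% of all genes, with a median of -0.66. Myc rose by 1.72 ± 0.207 (edgeR adjusted p = 0.000553). The largest falls were in Ccnd2, encoding cyclin D2 (-4.12 ± 0.545, edgeR adjusted p = 0.000859), Bcl6, a transcriptional repressor (-3.19 ± 0.351, edgeR adjusted p = 0.000417), and Bcl2l1, encoding the survival protein BCL-XL (-2.79 ± 0.305, edgeR adjusted p = 0.000411). Of 26 receptors outside these complexes, 23 were tested, with 2 called higher and 6 lower (34.8%) and a median of -0.81. Epor, the erythropoietin receptor, rose by 2.37 ± 0.558 (edgeR adjusted p = 0.0109) and Il12rb2, a signaling chain for IL-12, by 2.05 ± 0.278 (edgeR adjusted p = 0.000978). Ghr, the growth hormone receptor, fell by 3.65 ± 0.993 (edgeR adjusted p = 0.0206). Il23r and Il1rl1, the receptors for IL-23 and IL-33, were called lower with 1 and 3 counts over the 3 tumors, from 1.21 ± 0.371 and 1.39 ± 0.425 CPM in Ctrl (SD, n = 3).

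On the map (mm10), Il4ra (chromosome 7, 125552120 to 125579474, plus strand) and Il21r (125603429 to 125633570, plus strand) lie 24.0 kb apart with no tested gene between them, and both were called lower in ALK. Their outer neighbours were not called, with log2 fold changes of -0.49 ± 0.201 for Nsmce1 (edgeR adjusted p = 0.0898) and 0.08 ± 0.160 for Gtf3c1 (edgeR adjusted p = 0.736). Il2rb (chromosome 15, 78479256 to 78495271, minus strand) lies next to C1qtnf6, which was called in the opposite direction (2.63 ± 0.704, edgeR adjusted p = 0.0194). Its other neighbour, Kctd17, was not called (1.09 ± 0.759, edgeR adjusted p = 0.300). Of the neighbours of Ifngr1, Gm33104 was called lower (-2.80 ± 0.893, edgeR adjusted p = 0.0381) and Il20ra was not called (0.73 ± 0.702, edgeR adjusted p = 0.459). Both neighbours of Il10ra (chromosome 9, 45253837 to 45269149, minus strand) were called lower, BC049352 at -3.02 ± 0.684 (edgeR adjusted p = 0.00936) and Tmprss13 at -3.16 ± 0.875 (edgeR adjusted p = 0.0220).

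Over the 12 libraries, the genes most like Il2rb, the chain with the largest fall, were Ifit1, Traf1 and H2-DMb2. Likeness was the root mean square difference of log2(CPM + 1), each gene centered on its mean, and came to 0.239, 0.282 and 0.367. Ifit1, an interferon-induced gene, was at 1.75, 0.611 and 1.41 CPM in the tumors and at 36.7, 31.8 and 35.2 CPM in Ctrl. Traf1, a signaling adaptor of TNF receptors, was at 3.36, 1.48 and 3.28 CPM in the tumors and at 67.9, 45.9 and 57.6 CPM in Ctrl. H2-DMb2, which loads peptides on class II molecules, was at 2.89, 1.40 and 4.22 CPM in the tumors and 38.3, 33.7 and 39.2 CPM in Ctrl. All 3 shared with Il2rb the low tumors and the high KO mouse 2, at 87.9, 181 and 215 CPM.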

How the data were processed

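Poly(A)-enriched stranded RNA-seq of 12 mouse libraries was used, grouped by the labels alone. Per the labels and the methods, the authors trimmed 50-nucleotide single-end reads with Trim Galore, aligned them to mm10 with STAR and counted them per gene with HTSeq; the deposited values are raw counts without normalization. The annotation release and strand setting are not given in the sources used here. HTSeq's records of unassigned reads (39.2% to 51.8% of all records not unique, 1.70% to 2.81% without a feature, 1.38% to 2.83% ambiguous) stayed out of totals and tests. Reads shared by overlapping or near-identical genes are in no gene's count.

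Gene IDs were matched to GENCODE M21 (50376 of 50600). edgeR 4.0.16 in R 4.3.3 was run with TMM (factors 0.913 to 1.06), filterByExpr and a model with a term for each group, fitted to the 12 libraries together by robust glmQLFit. Contrasts were tested by glmQLFTest, and p-values were adjusted by Benjamini-Hochberg over 16052 genes. SEs were derived from the F statistic. CPM used TMM library sizes, and levels per length used the union of exons. Single chains were compared by exact permutation of CPM. The totals per library (12473857 to 18864327) limit precision only for the lowest genes, with 3 counts at 0.262 CPM in the shallowest tumor library. Floors cover counting error only, since reads carried no molecular identifiers. Replicates within groups differed beyond counting noise, with a chi-square of 14.6 to 226 for each degree of freedom.

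The members and gene lists were chosen with earlier results of these data known. Named genes were all members, Dnmt1 and Alk, 4 partner chains (Ifngr2, Il10rb, Il15ra and Il9r), the 3 genes most like Il2rb, and from each list the 3 largest called rises and falls whose mean reached 1 CPM. Il11ra1, the stromal markers Psmb11, Foxn1 and Col1a1 and the genes that neighbour members on the map are named outside this rule, chosen after values were seen. So are the markers Ikzf2, Foxp3 and Gata3. Promoter sequences came from RefSeq (GRCm38.p6), and those of Il2rb and Il10ra were not used here.

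Alternatives were DESeq2 1.42.0, its size factors in edgeR, other count filters, the replicate number as a block, age as a covariate, only the compared groups, longest-transcript lengths and each library left out. The scripts were tested on simulated data. DNA methylation was not analysed here.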

Additional observations from a re-analysis of the deposited data

Results flagged for a closer look

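The 4 chains lower in the tumors were flagged because ALK minus Ctrl differed from ALKKO minus KO in a test of the difference itself, edgeR's interaction. Only ALK was tumor, so transgene and transformation cannot be told apart in this difference. In 6 of the 12 fits that each left out 1 library (Ctrl mouse 1, 2 or 3, KO mouse 3, ALKKO mouse 1 or 3), 0 chains were called. The log2 differences were -2.36 for Ifngr1, -3.38 for Il21r, -3.33 for Il2rb and -1.69 for Il4ra. All 3 ALK mice were below all 3 Ctrl mice for each chain, whereas ALKKO minus KO was 0.31 for Ifngr1, 0.06 for Il21r, -1.005 for Il2rb and -0.11 for Il4ra, none of them called. The value of Il2rb in ALKKO against KO rests on KO mouse 2, without which it was 0.11.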

How the results depend on the processing

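Il2rb, Il4ra and Ifngr1 were called lower in ALK against Ctrl and against ALKKO under all 19 alternatives; DESeq2 gave no adjusted p for Il21r, which was called under the 18 others. With single libraries left out, the members called ranged from 4 to 5 in ALK against Ctrl, 4 to 6 in ALK against ALKKO and 0 to 6 in the interaction. The genes called ranged from 2130 to 3787 in ALK against Ctrl, 0 to 4 in KO against Ctrl, 5 to 34 in ALKKO against Ctrl, 1 to 2 in ALKKO against KO, 2251 to 3719 in ALK against ALKKO and 560 to 2219 in the interaction. The members called in the interaction were 2 without a count filter and 2 with the replicate block.

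DESeq2 called 42 genes in KO against Ctrl, 98 in ALKKO against Ctrl, 24 in ALKKO against KO and 2486 in the interaction. With at least 10 counts in every library, which leaves fewer genes to test, the counts were 1756 in ALK against Ctrl, 0 in KO against Ctrl, 1 in ALKKO against Ctrl, 0 in ALKKO against KO, 1531 in ALK against ALKKO and 667 in the interaction. Age as a covariate gave 9 in ALKKO against Ctrl. With only the compared groups, the counts were 0 in KO against Ctrl, 98 in ALKKO against Ctrl and 2049 in ALK against ALKKO. For the other settings the cause was not tested.

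Same-numbered mice of different groups correlated at -0.106 to 0.426 (median -0.037), and 5 of 12 libraries were closest to their own number, so the numbers were not taken as pairs; the replicate block gave 0 genes in KO against Ctrl and 5 in ALKKO against Ctrl.

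Several uncalled log2 fold changes changed sign. With age as a covariate they were 0.12 for Il2ra and -0.015 for Il7r in ALK against Ctrl, 0.097 for Il4ra, 0.19 for Il21r and 0.099 for Ifngr1 in KO against Ctrl, 0.030 for Il21r in ALKKO against Ctrl, -0.090 for Il6st and -0.16 for Il21r in ALKKO against KO, and 0.25 for Il2ra in ALK against ALKKO. Il6st in ALKKO against KO was -0.000299 with DESeq2, -0.000305 with its size factors and -0.00202 with the replicate block. With single libraries left out, the ranges were as follows in ALK against Ctrl: -0.76 to 0.22 for Il2ra, -0.29 to 1.03 for Il7r and -0.998 to 0.085 for Il6st. In KO against Ctrl they were -0.29 to 0.0020 for Il2ra, -0.35 to 1.15 for Il2rb, -0.046 to 0.65 for Il7r, -0.25 to 0.097 for Il4ra, -0.11 to 1.36 for Il6ra, -0.35 to 0.91 for Il10ra and -0.22 to 0.064 for Ifngr1. In ALKKO against Ctrl, Il10ra ranged from -0.011 to 0.35. In ALKKO against KO they were -0.081 to 0.20 for Il2ra, -1.40 to 0.11 for Il2rb, -0.24 to 0.12 for Il4ra, -1.08 to 0.40 for Il6ra, -0.021 to 0.075 for Il6st, -0.76 to 0.52 for Il10ra and -0.052 to 0.27 for Il21r. Il2ra ranged from -0.67 to 0.31 in ALK against ALKKO and from -0.84 to 0.14 in the interaction, where Il6st ranged from -1.02 to 0.087. For Il2rb, Il6ra and Il10ra, 1 end of the ranges in KO against Ctrl and in ALKKO against KO was the value without KO mouse 2. Longest-transcript lengths exchanged Il4ra with Il6st in ALKKO and Il10ra with Il7r in KO.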

Other observations

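Jak3, the kinase that binds the common gamma chain, was chosen here after its values were seen. It was at 69.3, 62.1 and 62.8 CPM in Ctrl, 75.5, 157 and 59.9 in KO, 65.6, 79.6 and 215 in ALK and 371.7, 183 and 258 in ALKKO. Every ALKKO mouse was above every Ctrl and KO mouse, but the gene was not called (log2 fold change of ALKKO against Ctrl 2.07 ± 0.494, edgeR adjusted p = 0.319). Socs3 stood at 305, 236 and 238 CPM in ALKKO and at 32.6, 28.1 and 26.4 in Ctrl. In ALK it was at 192, 50.6 and 182 CPM, so that ALKKO was above all tumors. For Socs3, ALKKO against Ctrl was 3.16 ± 0.582 on the log2 scale and was not called (edgeR adjusted p = 0.0958). The spread in both tests is that of all 12 libraries, tumors included, so that differences between thymus groups can be missed. With DESeq2, the paper reported Socs3 as up-regulated in ALKKO against Ctrl.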
